A study of Mus musculus with 12 samples.

Results

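The 10 genes described here, Foxj1, Rfx2, Rfx3, Mcidas, Ccno, Myb, Trp73, Ccdc78, Plk4 and Foxn4, encode transcription factors and centriole amplification proteins that turn an epithelial progenitor into a multiciliated cell. They were taken as a list of symbols with no threshold on a measured value, though with earlier results of these data known, and all 10 were found among the 24421 gene rows of the count files. A multiciliated cell leaves the cell cycle, builds many centrioles in its cytoplasm, docks them as basal bodies and grows a motile cilium from each of them. Mcidas (multicilin), with E2F factors, starts centriole amplification, and Foxj1 with the RFX factors turns on the genes of the motile axoneme, the microtubule and dynein core that makes the cilium beat. In newborn lung these cells line the airways, while liver parenchyma has none.

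Poly-A RNA of lung and liver from newborn mice was sequenced with a stranded kit. Mice that carried 1 copy of the Man1a2tm1.1Ahe allele were bred. The pups sequenced were either wild type (WT, Man1a2+/+) or null (Man1a2-/-), the null allele lacking exon 2 of Man1a2, which encodes a Golgi alpha-mannosidase that trims N-glycans, in every cell. Tissue was taken shortly after birth, giving 12 libraries, 3 in each of the 4 groups, and 26759463 to 42914295 reads were counted per library. Values below are read counts relative to the library total (CPM), scaled within each tissue by the trimmed mean of M values (TMM). Summed levels of gene lists, and the correlations between lung libraries, are of CPM without that scaling. Changes are log2 fold changes of null over WT from edgeR (quasi-likelihood test), p-values were adjusted over all genes tested by the Benjamini-Hochberg method, and a gene was called when the adjusted p was under 0.05 and it differed 1.2-fold or more.

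Man1a2, counted over the whole gene, read 137, 99.5 and 141 CPM in the WT lungs against 56.7, 64.3 and 66.3 CPM in the null lungs. In liver it read 67.5, 40.7 and 52.5 CPM against 40.4, 36.8 and 38.7 CPM. The library labelled null lung 1 stood apart from the other 5 lung libraries, with correlations of log2 CPM of 0.839 to 0.860 to them. Several of its marker lists went against its label. The 5 alveolar type 2 markers summed to 98.1 CPM there and to 22030 to 28948 CPM in the other lungs, the 5 basal cell markers to 1258 against 13.8 to 25.1 CPM, and 8 genes of skeletal and heart muscle to 25265 against 174 to 499 CPM. The lung results are therefore given with and without that library. The airway lists of null lung 1 lay within the range of the other lungs. Its 6 club cell markers summed to 5706 CPM against 3889 to 6049 CPM, and its 10 ciliated cell markers to 728 against 565 to 1234 CPM. Of the club markers, however, Scgb1a1 read 248 CPM there against 1898 to 2680 CPM, without TMM scaling. Null liver 1 held 3776 CPM of the same muscle genes against 4.36 to 5.80 CPM in the other livers. Genes of the other tissue were also read, given here without TMM scaling. The alveolar type 2 marker Sftpc read 30.7 CPM in WT liver 2, which held the only Mcidas read in liver, against 0.113 to 4.23 CPM in the other livers. The hepatocyte gene Alb read 406, 374 and 138 CPM in WT lung 1, null lung 2 and null lung 3, against 24.3 to 48.7 CPM in the other lungs. The part of such reads in the results was not tested.

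**Figure D1:**
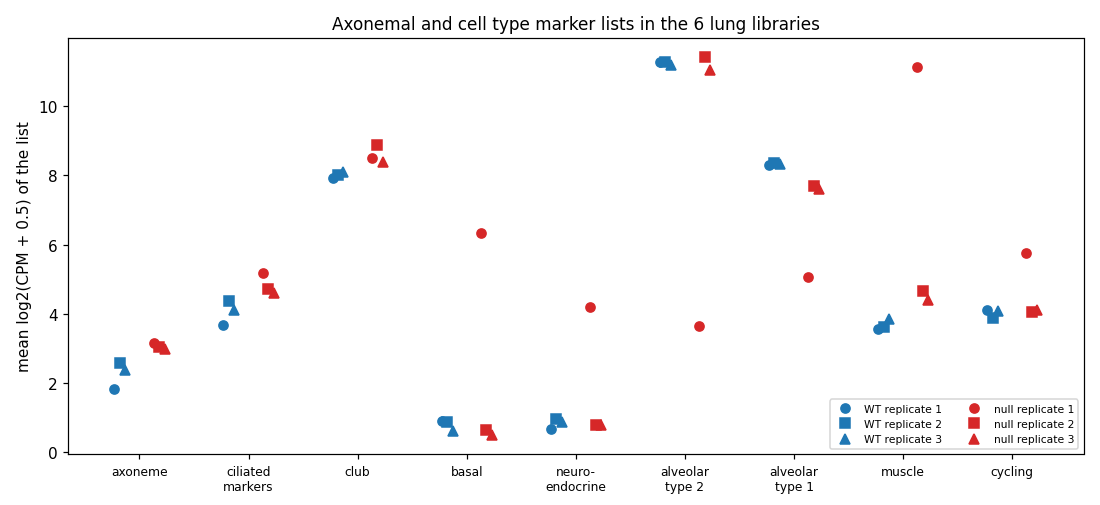
Mean log2(CPM + 0.5) of the axonemal genes and of 8 marker lists (y axis) in the 6 lung libraries, with WT in blue and null in red and 1 symbol for each replicate. Null lung 1, the red circle, lies far from the other null lungs for the basal, neuroendocrine, alveolar, muscle and cycling lists, whereas for the axonemal genes it lies beside them, at 3.15 against 3.05 and 2.99.

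Ccno and Mcidas lie side by side on chromosome 13 on the plus strand (mm10), Ccno from 112987802 to 112990777 and Mcidas from 112993845 to 113000394. Cdc20b, from 113035111 to 113091195, follows them and hosts the miR-449 family. Ccdc78 lies on chromosome 17 from 25786580 to 25790513. RefSeq promoters of GRCm38.p6, the assembly of mm10, were matched for 9 of the 10 genes, Foxj1 having none in the table used. The 250 bases before the RefSeq start of the neighbours Ccno and Mcidas, and of Ccdc78, the gene with the largest difference in lung, are printed 5′ to 3′ in the direction of the gene, with matches to the motifs searched in capitals.

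Ccno, chr13:112987552-112987801, plus strand: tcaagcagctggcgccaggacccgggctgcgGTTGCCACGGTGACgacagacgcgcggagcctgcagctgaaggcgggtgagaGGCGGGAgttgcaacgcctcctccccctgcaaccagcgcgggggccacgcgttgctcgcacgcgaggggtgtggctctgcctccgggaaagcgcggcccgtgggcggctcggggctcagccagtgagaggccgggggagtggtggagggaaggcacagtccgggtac

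Mcidas, chr13:112993618-112993867, plus strand: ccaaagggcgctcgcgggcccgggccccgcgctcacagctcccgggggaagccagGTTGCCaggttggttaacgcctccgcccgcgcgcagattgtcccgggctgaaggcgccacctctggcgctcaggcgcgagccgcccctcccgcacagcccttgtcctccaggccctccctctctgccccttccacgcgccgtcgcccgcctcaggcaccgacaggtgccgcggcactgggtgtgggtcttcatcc

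Ccdc78, chr17:25786330-25786579, plus strand: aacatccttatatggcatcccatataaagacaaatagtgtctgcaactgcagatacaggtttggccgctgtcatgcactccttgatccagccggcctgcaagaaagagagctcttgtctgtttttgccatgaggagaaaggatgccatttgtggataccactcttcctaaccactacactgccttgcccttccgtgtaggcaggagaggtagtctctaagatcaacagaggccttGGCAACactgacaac

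The capitals in Mcidas mark GTTGCC, the core of the X-box that RFX factors bind, at -195 from the start, and those in Ccdc78 the same letters on the other strand at -15. The longer run in Ccno at -219 holds that core within a match, on the other strand, to the whole X-box, searched by a consensus with degenerate positions, and the shorter run at -167 is an E2F match, searched as GGCGGGA. Searched on both strands from 250 bases before to 50 after the start, the X-box core was found in 6 of the 9 genes (Ccno, Mcidas, Ccdc78, Rfx2, Rfx3 and Trp73). The 9 genes have 10 promoters, Trp73 having more than 1, and 6 of the 10 held the core. It was found in 12.5% of 32851 promoters and 40.9% of the 66 promoters matched to axonemal genes. The whole X-box was found in 1 of the 10 promoters, in 2.17% of all promoters and in 18.2% of the 66 axonemal ones. The E2F letters were found in 4 of the 10 (Ccno, Myb, Rfx2 and Trp73), in 11.3% of all promoters and in 7.58% of the axonemal ones. The forkhead letters TGTTTAC were found for Myb and in 3.65% of all promoters, and the MYB letters TAACGG for none of the 9 and in 2.76%. The core and the whole X-box overlap by construction, and a match describes the sequence and not a bound site.

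In WT lung Foxj1 was the most abundant of the 10 per length of exon, at 22.3 ± 6.83 CPM per kb (SD, n = 3). Ccno, at 2.65 ± 0.344 CPM per kb, and Rfx2, at 2.40 ± 0.0835, did not differ beyond their spread. Plk4 lay just under Rfx2, at 2.24 ± 0.105 CPM per kb, and above Rfx3, at 1.28 ± 0.263. Each of the remaining genes lay within the SD of the gene next to it, namely Rfx3, Myb at 1.27 ± 0.400, Ccdc78 at 1.15 ± 0.436, Trp73 at 0.744 ± 0.249, Mcidas at 0.554 ± 0.173 and Foxn4 at 0.388 ± 0.145 CPM per kb.

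Against WT liver, all 10 genes were called in WT lung, where 77.0% of the 15635 genes tested were called. The choice of genes known for airway cells makes most of these differences a check of the list. Foxj1 was higher in lung by 6.76 on the log2 scale (SE 0.35), Trp73 by 5.88, Ccdc78 by 4.17, Ccno by 2.29, Rfx3 by 1.59 and Rfx2 by 0.45. Mcidas was counted 134 times over the WT lungs and once over the WT livers, a ratio of CPM of 135 (95% exact interval 23.7 to 5355, counting error only). That ratio is not scaled by TMM, and the edgeR change of Mcidas was 5.98 on the log2 scale, or 63.1-fold. Foxn4 was counted 132 times in WT lung and 0 times in WT liver, at least 44.2-fold higher, also without TMM scaling, when 3 counts are set for the liver group. Myb, which also drives blood progenitors, was lower in lung by 1.96 on the log2 scale (log2 fold change -1.96, SE 0.23), and Plk4, the kinase that starts centriole duplication in every dividing cell, likewise (-1.53, SE 0.09). The newborn liver is a blood-forming organ with many dividing cells.

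**Figure D2:**
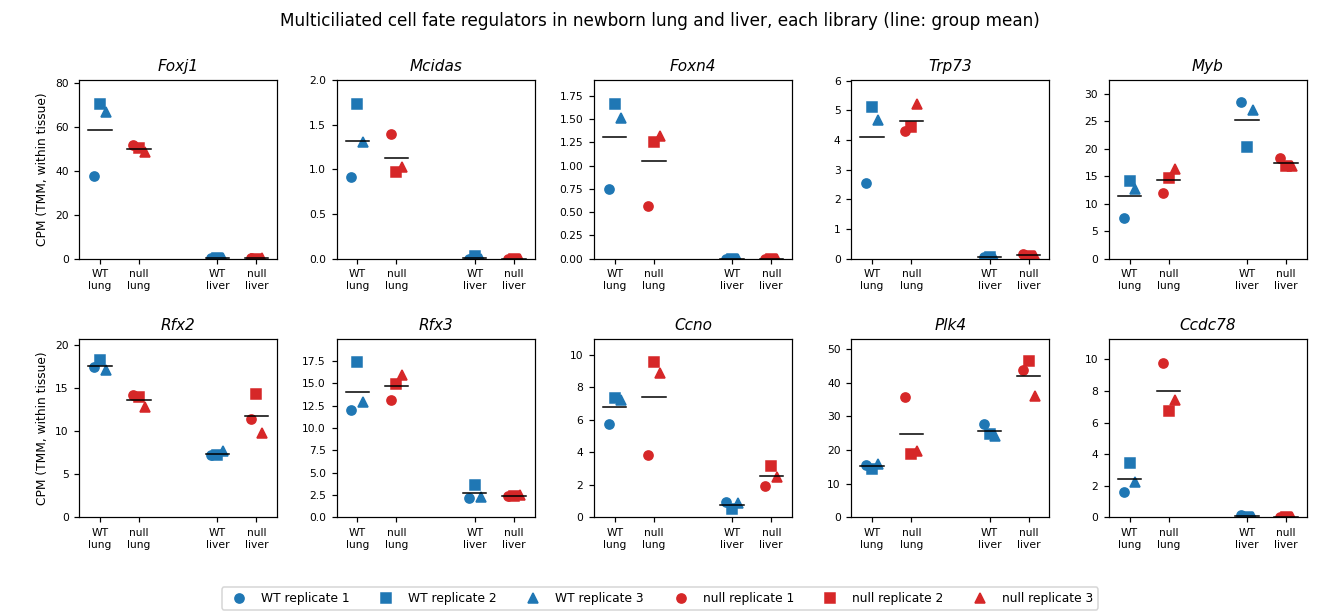
CPM of each gene (y axis, from 0) in WT lung, null lung, WT liver and null liver, 1 symbol for each replicate and a line at the group mean. Ccdc78 is the gene with the largest fold between WT and null lung, Rfx2 is lower in null lung and higher in null liver, and Mcidas and Foxn4 lie at or near 0 in all 6 livers.

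In the lung comparison none of the 10 genes was called, and over all 15591 genes tested 51 genes (0.327%) were. At an unadjusted p under 0.05 there were 3 of the 10 and 3898 of all genes. DESeq2 called 1 of the 10, Ccdc78, and 15.1% of all genes, and edgeR without null lung 1 also called 1, again Ccdc78, and 37.0% of all genes. The groups did not overlap for 3 of the 10 (Ccdc78 and Plk4 higher, Rfx2 lower) and for 36.1% of all genes. The median log2 fold change of the 10 was 0.10, against 0.06 over all genes tested. Without null lung 1 it was 0.19, against -0.01 over all genes, and the groups did not overlap for 4 that were higher and 1 that was lower, and for 4682 and 5141 of all 15885 genes. In bulk tissue fewer cells of a type and less RNA per cell cannot be told apart.

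Among the early regulators, Mcidas read 0.912, 1.73 and 1.31 CPM in the WT lungs and 1.40, 0.966 and 1.02 CPM in the null lungs. These are 39, 50 and 45 reads against 37, 37 and 42, and the groups overlapped throughout (log2 fold change -0.22, SE 0.36, adjusted p = 0.736). Foxn4, a forkhead factor that acts with multicilin, read 0.749, 1.66 and 1.51 CPM against 0.568, 1.25 and 1.32 CPM. The lowest value of each genotype was that of replicate 1, and the groups overlapped (-0.31, SE 0.48, adjusted p = 0.718). Trp73, whose TAp73 isoform acts upstream of Foxj1, read 2.55, 5.13 and 4.67 CPM against 4.32, 4.44 and 5.21 CPM, with all 3 null values inside or just above the WT range (0.18, SE 0.33, adjusted p = 0.764). Its counts may hold reads of the antisense gene Trp73os, whose exons overlap it. Myb, an early factor of the lineage, read 7.35, 14.1 and 12.7 CPM against 11.9, 14.7 and 16.4 CPM, again overlapping (0.33, SE 0.29, adjusted p = 0.506), and its exons overlap the antisense gene Gm26577.

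Foxj1, the factor that turns on motile ciliogenesis, read 37.8, 70.4 and 67.0 CPM in the WT lungs and 51.6, 50.3 and 48.4 CPM in the null lungs. The null values lay close together between WT lung 1 and the other WT lungs, and the means of 58.4 ± 17.9 and 50.1 ± 1.60 CPM (SD, n = 3) did not differ beyond the spread (-0.22, SE 0.25, adjusted p = 0.603). Rfx2, which works with Foxj1 on ciliary genes, read 17.4, 18.2 and 17.1 CPM against 14.1, 14.0 and 12.8 CPM. Every null value lay under every WT value, but the gene was not called (-0.36, SE 0.15, adjusted p = 0.199, and 0.0559 without null lung 1). Rfx3, another RFX factor of ciliated cells, read 11.98, 17.4 and 12.9 CPM against 13.1, 14.96 and 15.9 CPM, with the WT and null ranges overlapping (0.06, SE 0.21, adjusted p = 0.881).

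Of the centriole amplification genes, Ccdc78 and Plk4 had the largest fitted changes of the 10 and Ccno 1 of the smallest. Ccdc78, a protein of the deuterosome on which new centrioles form, read 1.61, 3.43 and 2.23 CPM in the WT lungs and 9.78, 6.71 and 7.43 CPM in the null lungs, or 69, 99 and 77 reads against 258, 257 and 305. Each null library was well above each WT library, and the fitted change was 3.29-fold (1.72 on the log2 scale, SE 0.36, adjusted p = 0.0756). It was called with all 12 libraries in 1 fit (adjusted p = 0.0181, where 14.1% of all genes were called) and without null lung 1 (1.56, adjusted p = 0.00759), and leaving out each library in turn gave changes from 1.49 to 2.04. The exons of Ccdc78 overlap those of Fam173a on the opposite strand, and whether counting used strand is not given in the sources used here. Fam173a read 27.6, 30.5 and 23.7 CPM in WT against 20.7, 28.1 and 24.3 CPM in null lungs, a change in the other direction that was not called (-0.16, SE 0.18, adjusted p = 0.604).

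Plk4 read 15.6, 14.5 and 15.9 CPM in the WT lungs and 35.7, 18.9 and 19.6 CPM in the null lungs. All null values were higher, null lung 1 by far the most, and the change of 0.69 (SE 0.28, adjusted p = 0.199) was 0.33 without that library (adjusted p = 0.0831). The 12 cycling genes summed to 782 CPM in null lung 1 and to 218 to 260 CPM in the other 5 lungs, none of them at 0 in any lung, and their part in the Plk4 difference of null lung 1 was not tested. Ccno, a cyclin-like protein needed for deuterosome-mediated amplification, read 5.76, 7.35 and 7.19 CPM against 3.86, 9.53 and 8.89 CPM. Null lung 1 was the lowest and the other null lungs the highest of the 6, so the groups overlapped (0.14, SE 0.38, adjusted p = 0.845), while without null lung 1 the change was 0.45 (adjusted p = 0.0881).

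All 22 genes of a list of the other genes of the pathway were tested in lung. Of their changes 11 were above 0, none was called, 4 passed an unadjusted p of 0.05, and the median was 0.05. DESeq2 called 1 higher and 1 lower, where it called 15.1% of all genes. Leaving out null lung 1 gave 3 calls higher (Stil, Ccp110 and Notch1) and 3 lower (Tfdp1, Cenpj and Cby1), names given here after their values were seen, and these 6 of 22 compare with 37.0% of all genes called in that fit. Of the genes named whatever their values, Gmnc, the geminin-like protein upstream of Mcidas, read 0.211, 0.763 and 0.899 CPM in WT and 0.493, 0.287 and 0.0975 CPM in null lungs, which overlapped (-1.11, SE 0.76, adjusted p = 0.392). Deup1, the deuterosome scaffold listed under its older symbol Ccdc67, changed by 0.38, Cdc20b, the neighbour of Mcidas, by 0.50 and Sass6, of the centriolar cartwheel, by -0.16, none of them called. Stil, the partner of Plk4 in starting a centriole, read 5.61, 5.86 and 5.83 CPM in the WT lungs against 18.4, 9.92 and 9.82 CPM in the null lungs, with no overlap (1.14, SE 0.30, adjusted p = 0.107). Without null lung 1 it was 0.78 (adjusted p = 0.00858). The 3 most abundant genes of the list, Notch1 (0.20), Pcm1 (0.16) and Hes1 (-0.42), were not called with all 6 libraries.

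The axonemal genes downstream of these regulators had mostly higher values in null lung. Of 69 genes matched, 68 were tested, and 62 of the 68 had a change above 0, with a median of 0.95 and a range from -0.58 to 2.01. None of them was called with all 6 libraries, 43 passed an unadjusted p of 0.05, and DESeq2 called 34 higher and 0 lower, where 1140 and 1215 of all 15572 genes were called higher and lower. Leaving out null lung 1 gave 37 calls higher and 2 lower (Dnal1 and Gas8), where 2860 and 3021 of all 15885 genes were called, and the median was 0.86. The groups did not overlap for 50 genes that were higher and 2 that were lower, where 2588 of 15591 genes were higher and 3037 lower without overlap. Lrrc23, of the radial spokes, changed by 1.35, Dynlrb2, a dynein light chain, by 0.82 and Dnal1, a light chain of the outer arm, by -0.58, these being the 3 most abundant of the list.

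Some marker genes of other cells were called as well. Without null lung 1, where 37.0% of all genes were called, 3 of 5 general epithelial genes were called higher (median 0.63, summed level 1428 to 1702 CPM in WT and 1886 and 1949.8 CPM in null lungs), 2 of 6 club cell genes higher and 1 lower (median 0.23, 3889 to 4793 against 6049 and 3922 CPM), 5 of 8 muscle genes higher (median 1.13, 174 to 281 against 499 and 404 CPM) and 3 of 5 alveolar type 1 genes lower (median -0.71, 2593 to 2670.3 against 2287 and 1948 CPM). In null lung 1 the same sums were 589.8, 5706, 25265 and 379 CPM. No gene of these lists was at 0 in any lung, and their part in the axonemal difference was not tested.

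The 11 genes tested of the assembly list, which holds dynein assembly and other ciliary genes, had a median of 0.32 with 9 above 0 and none called. Without null lung 1 the median was 0.13 with 7 above 0, 3 called higher and 1 lower. In that fit 37.0% of all genes were called. The most abundant of them were Ttc12 (0.62), Stk36 (-1.18, adjusted p = 0.0735, and called lower without null lung 1 at -1.10, adjusted p = 0.00823) and Dnaaf2 (-0.09). The 10 ciliated cell markers had a median of 0.99 with 8 of 10 above 0, and without null lung 1 a median of 0.86 with 6 called higher and 1 lower. The summed level of those 10 markers did not follow that median, at 689, 1234 and 835 CPM in the WT lungs and 728, 655 and 565 CPM in the null lungs, groups that overlapped. The markers with a change under 0 were Tppp3 (-0.16) and Sec14l3 (-1.08). Without null lung 1 Tppp3 was called lower (-0.56, adjusted p = 0.0215) and Sec14l3 was not called (-0.70, adjusted p = 0.0741).

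**Figure D3:**
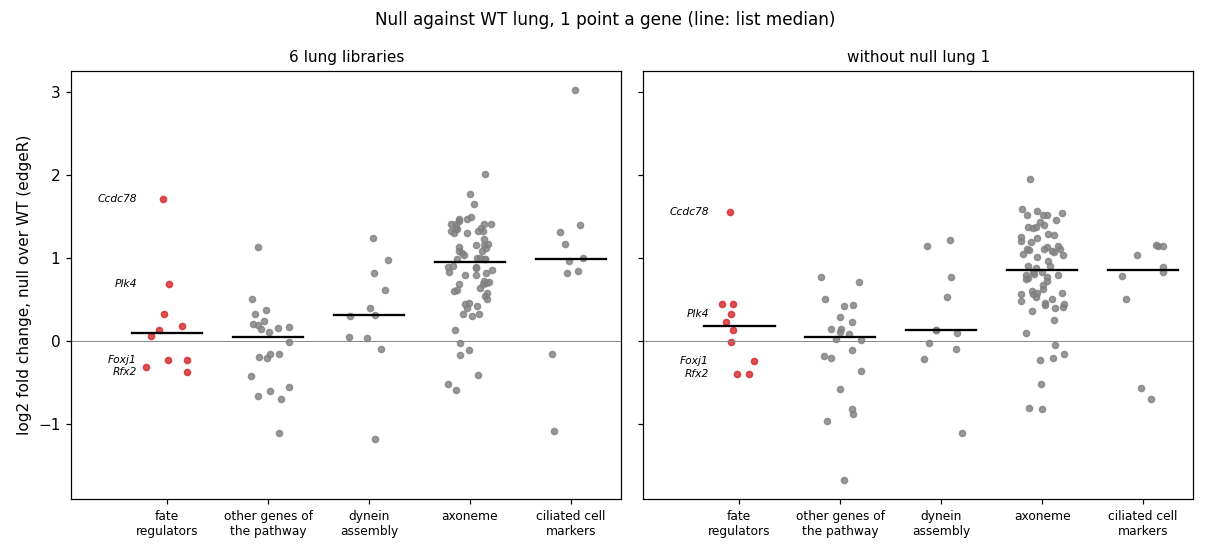
Log2 fold change of null over WT lung (y axis, edgeR) for each gene of 5 lists, with all 6 lung libraries on the left and without null lung 1 on the right, and a line at each list's median. The medians of the 10 regulators and of the 22 other pathway genes lie near 0, at 0.10 and 0.05 on the left. Those of the axonemal genes and ciliated cell markers lie near 1. Ccdc78 is the highest of the regulators, at 1.72 on the left and 1.56 on the right.

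To ask whether the regulators moved with the axonemal genes, the mean log2(CPM + 0.5) of the 69 axonemal genes was taken in each library. It was 1.83, 2.58 and 2.37 in the WT lungs and 3.15, 3.05 and 2.99 in the null lungs, with no overlap and a difference of 0.80 (two-sided exact permutation p = 0.1, the smallest that 3 against 3 allows), or 0.76 without null lung 1. Because the genotypes separated on this mean, no correlation over the 6 libraries was computed.

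Each regulator was then set against the axonemal mean within each library. Foxj1 exceeded it by 3.43, 3.57 and 3.71 in the WT lungs and by 2.55, 2.62 and 2.63 in the null lungs on the log2 scale. Within a genotype the ratio was narrow, with an SD of 0.14 in WT, where Foxj1 itself ranged from 37.8 to 70.4 CPM. In null the SD was 0.04, where Foxj1 itself ranged only from 48.4 to 51.6 CPM. This was not particular to Foxj1. The SD in WT was smaller for Foxn4 (0.072), Mcidas (0.096), Myb (0.106) and Trp73 (0.109), and Rfx2 had an SD of 0.043 in null. Between genotypes the Foxj1 ratio was lower by 0.97 in null (null minus WT -0.97, exact permutation p = 0.1). Mcidas lay under the mean in every library, at -1.33, -1.42 and -1.52 in WT and at -2.22, -2.50 and -2.38 in null, a difference of -0.95. Foxn4 differed by -1.03, Rfx2 by -1.16, Ccno by -0.76, Rfx3 by -0.73, Trp73 by -0.60 and Myb by -0.45. In all, 8 of the 10 regulators were lower against the axonemal mean in every null library, also when null lung 1 was left out, each with an exact permutation p = 0.1.

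The same was found for 8785 of the 15591 genes tested (56.3%), with a median of -0.79. A gene with the same CPM in both genotypes lies lower against a mean that is higher. The 8 of 10 therefore counts regulators that rose less than the axonemal mean, stayed level or fell, as most genes did. Without null lung 1 the smallest of the 8 differences were those of Myb (-0.28) and Ccno (-0.34). Plk4 differed by -0.19 with overlapping groups (exact permutation p = 0.6). Ccdc78 went the other way, at -0.74, -0.60 and -0.92 in the WT lungs and 0.21, -0.20 and 0.00 in the null lungs, a difference of 0.76 that was higher in every null library. Over all genes tested, 132 of 15591 were higher against the axonemal mean in every null library.

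**Figure D4:**
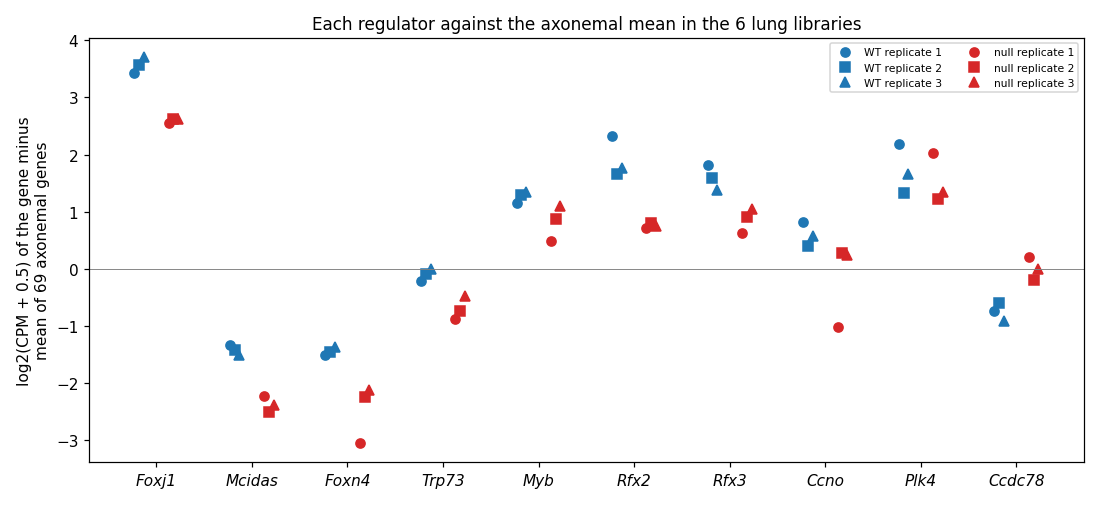
Log2(CPM + 0.5) of each regulator minus the mean of the 69 axonemal genes (y axis) in the 6 lung libraries, WT in blue and null in red, 1 symbol for each replicate. Null lies under WT without overlap for Foxj1, Mcidas, Foxn4, Trp73, Myb, Rfx2, Rfx3 and Ccno, overlaps it for Plk4 and lies above it for Ccdc78.

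The genes most like each regulator over the 6 lung libraries were ranked by the root mean square distance of log2 values centred on their own means, among 14912 genes of which 68 (0.456%) were axonemal. For Ccdc78 the nearest 5 were Rsph14, Mdh1b, Ldlrad1, Armc3 and Ccdc153, at distances of 0.107 to 0.143, and 12 of its nearest 50 were on the axonemal list. Trp73 had 4 such genes among its nearest 50, its closest being Ttc34, Clic6, Lrriq1, Fam179a and Caps2. Myb had 3, with Cfap69 and Spag17 among its closest 5 beside Lrriq1, Ccdc170 and Fam179a. Foxj1 had 2, its closest being 2610028H24Rik, Vgf, Cdkl4, A730020E08Rik and Kctd8, and Mcidas had 1, Ccdc114, a docking protein of the outer dynein arm. The other 5 regulators had 0 of 50. Gene profiles of 6 libraries share depth, the same outlying library and the difference between the genotypes. The ranks therefore partly restate the changes given above and are a description only.

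In liver 6 of the 10 genes had enough reads to be tested, and 4 of the 6 were called, where 26.9% of the 14343 genes tested were called. Without null liver 1 all 4 were called, and with all 12 libraries in 1 fit Plk4 (adjusted p = 0.0548) and Myb were not. The groups did not overlap for those 4, and for 46.6% of all genes. Ccno, which the study itself had picked from these livers and which is therefore not independent evidence, read 0.955, 0.495 and 0.917 CPM in the WT livers and 1.93, 3.18 and 2.46 CPM in the null livers. Each null liver was above each WT liver and the gene rose 3.18-fold (1.67 on the log2 scale, SE 0.33, adjusted p = 0.0115). Its neighbours on chromosome 13 gave no such reads, with Mcidas counted once and Cdc20b once over the 6 livers, a level at which no difference was detectable. Plk4 read 27.6, 24.7 and 24.3 CPM against 43.7, 46.6 and 36.1 CPM and rose by 0.72 (SE 0.12, adjusted p = 0.00661). Stil rose with it, by 1.05 (SE 0.13, adjusted p = 0.00339).

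Of the 12 cycling genes, 11 had a change above 0 in liver and 6 were called higher, where 26.9% of all genes were called. Their median was 0.47 against 0.02 over all genes. Their summed level, not scaled by TMM, was 1159.8 to 1349 CPM in WT and 1160.6 to 1931 CPM in null livers. Scaled by TMM, their mean log2(CPM + 0.5) was 6.08, 5.98 and 6.11 in the WT and 6.48, 6.62 and 6.16 in the null livers, without overlap. None of the 12 was at 0 in any liver, and their part in the Plk4 and Stil changes was not tested. Rfx2 read 7.23, 7.21 and 7.70 CPM in the WT livers and 11.4, 14.2 and 9.75 CPM in the null livers, with no overlap, and rose by 0.68 (SE 0.17, adjusted p = 0.0233). Its adjusted p was 0.0564 to 0.0779 without WT liver 1, WT liver 2, WT liver 3 or null liver 2, each left out in turn.

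Myb read 28.5, 20.3 and 27.1 CPM against 18.2, 16.9 and 16.9 CPM, every null liver under every WT liver, and fell by 0.54 (SE 0.14, adjusted p = 0.0282). The adjusted p was 0.0566 to 0.109 without WT liver 1, WT liver 3, null liver 2 or null liver 3, each left out in turn, and 0.160 with all 12 libraries in 1 fit. Of 9 blood progenitor genes, 2 were called higher and 1 lower in liver, where 26.9% of all genes were called, their summed level was 391 to 505 CPM in WT and 347 to 517 CPM in null livers, none was at 0, and their part in the Myb change was not tested. Rfx3 read 2.16 to 3.65 CPM in WT and 2.40 to 2.46 CPM in null livers (-0.14, SE 0.26, adjusted p = 0.698). Foxj1 was near the limit, with 6 to 15 reads in the WT and 1 to 13 in the null livers (-0.94, SE 0.86, adjusted p = 0.443). Leaving out 1 library moved that value to between -2.81 and -0.43, and without null liver 3, which held 13 of the 16 null reads, it was called (-2.81, adjusted p = 0.0428). The remaining 4 had too few reads to test, with 0 to 1 for Mcidas, 0 for Foxn4, 0 to 5 for Trp73 and 1 to 5 for Ccdc78 in each liver. Of the 28 axonemal genes tested in liver, 6 were called higher and 2 lower, where 26.9% of all genes were called, with a median of -0.03.

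**Figure D5:**
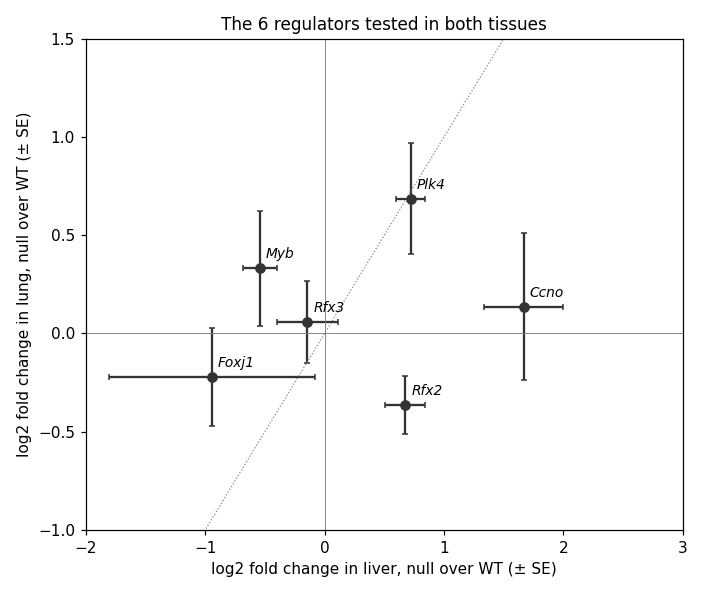
Log2 fold change of null over WT in liver (x axis) and in lung (y axis) for the 6 regulators tested in both tissues, with bars of 1 SE and a dotted line where the tissues are equal. Plk4 lies near the line at 0.72 and 0.69, and Rfx2 lies at 0.68 in liver and -0.36 in lung.

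The difference between the tissues was tested as an interaction. None of the 10 was called, where 60 of 16155 genes (0.371%) were, and with the replicate number within genotype as a block, which pairs lung and liver libraries of the same number, 0 of all genes were called at an adjusted p under 0.05, against 2224 at an unadjusted p under 0.05. At an unadjusted p under 0.05 without the block, 4 of the 10 passed, and 2239 of all 16155 genes. Rfx2 gave the clearest of these, a lung change minus liver change of -1.04 (SE 0.22, adjusted p = 0.0771), called without null lung 1 (adjusted p = 0.0265, where 5.0% of all genes were called) and by DESeq2 (adjusted p = 0.000734, where 3.94% were). With the block its adjusted p was 0.144. Ccno differed by -1.54 (SE 0.52, adjusted p = 0.239), Ccdc78 by 2.99 (SE 0.75, adjusted p = 0.120) on at most 5 reads in any liver, and Myb by 0.87 (SE 0.33, adjusted p = 0.282). Plk4 differed by -0.05 (SE 0.31, adjusted p = 0.974), Rfx3 by 0.21 (SE 0.33), Foxj1 by 0.73 (SE 0.86) and Trp73, on at most 5 reads in any liver, by -1.26 (SE 0.81). Mcidas and Foxn4 had no read in the null livers, and no difference is given for them.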

How the data were processed

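Lung and liver of newborn WT and null pups were profiled by stranded poly-A RNA-seq. The authors deposited raw counts per gene and library, unnormalized. Per the submitters' processing notes reads were aligned with STAR 2.5.2a to mm10, while the counting program and its use of strand are not given in the sources used here. Fold changes and tests deposited by the authors were not used.

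Samples were grouped by their labels. The 10 genes, the gene lists and the alternatives were chosen with earlier results of these data known. All 10 genes are named in every comparison. Of the axonemal, assembly and other pathway lists, the 3 most abundant genes tested in lung are named, plus Gmnc, Deup1, Cdc20b, Stil and Sass6, and for each of the 10 the 5 genes nearest to it. Gas8, Tppp3, Sec14l3, Tfdp1, Cenpj, Cby1, Ccp110, Sftpc, Alb, Scgb1a1 and the overlapping gene Fam173a were named after their values were seen. Of the list symbols, 8 were matched by older symbols and 4 axonemal genes (Dnah3, Dnah12, Cfap54 and Cfap99) had no match. List medians and counts are given with no set test.

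Genes passing filterByExpr were tested with edgeR 4.0.16 (R 4.3.3, TMM, glmQLFit and glmQLFTest, Benjamini-Hochberg adjustment). CPM were scaled by TMM within a tissue, except for summed levels of lists, correlations between lung libraries and ratios of counts between the tissues. Levels between genes were divided by merged exon length (GENCODE annotation of mm10), and log2 values used a pseudocount of 0.5. Single values were tested by two-sided exact permutation, which cannot go below p = 0.1 with 3 against 3. DESeq2 1.42.0, other filters and scalings, a fit blocked on replicate number and fits that omit a library in turn were alternatives. Labels do not say which libraries share a litter, so p-values measure the spread between these pups.

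Total counts were 26759463 to 42914295 per library, so that 3 counts are 0.0699 to 0.112 CPM, and no libraries were copies of each other. The replicate numbers did not pair WT with null (correlations of deviations from the group mean of -0.04 to 0.14), but paired lung with liver of a genotype (0.19 to 0.46 in all 6 pairs). The blocked fit is therefore given beside the tissue difference. On simulated counts with changes of 2 on the log2 scale, edgeR recovered 45.2% of the changed genes in lung, with 2 false calls, and 92.4% in liver. The simulation held no outlying library like null lung 1, and the largest change of the 10 genes in lung was 1.72. It therefore does not give the recovery of smaller changes or the effect of such a library.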

Additional observations from a re-analysis of the deposited data

Results flagged for a closer look

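Rfx2 differed in opposite directions in the 2 tissues, and passed the test in liver (0.68, adjusted p = 0.0233) but not in lung (-0.36, adjusted p = 0.199, edgeR). The liver call was sensitive to single libraries, with Rfx2 called in 2 of 6 liver fits lacking 1 library. In lung it was called in 0 of 6 such fits. Every null lung lay under every WT lung, while every null liver lay above every WT liver. Groups without overlap, in either direction, were found for 36.1% of all genes in lung and 46.6% in liver. The lung change of Rfx2 minus its liver change was -1.04 on the log2 scale. That difference was tested as an interaction in edgeR and was not called (adjusted p = 0.0771 over all genes, 0.144 with the replicate number as a block), but was called by DESeq2 (-1.02, adjusted p = 0.000734) and without null lung 1 (adjusted p = 0.0265). Over the alternatives the adjusted p ran from 0.000734 to 0.220 and the difference from -1.17 to -0.89.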

How the results depend on the processing

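The number of regulators called in lung was 0, and 1 by DESeq2 and with all 12 libraries in 1 fit, and 0 to 1 when each library was left out, the 1 being Ccdc78 without null lung 1. Without null liver 3 Foxj1 was called in liver at -2.81. In liver 4 were called, 2 with all 12 libraries in 1 fit and 2 to 4 when each library was left out. For the tissue difference 0 were called, 1 by DESeq2, and 0 to 1 when each library was left out. For WT lung against WT liver 10 were called, and 5 with at least 10 counts in every library, since only those could be tested. Against the axonemal mean 8 regulators were lower in every null library, where 56.3% of all genes were. The number was 4 with the assembly list as the reference, for which the share of all genes is not given here. With that reference Myb was 0.094 and Plk4 0.35. The cause of the other shifts was not tested.

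Signs also turned when a library was left out. Leaving out each library gave -0.047 to 0.24 for Rfx3, -0.43 to 0.021 for Mcidas, -0.082 to 0.45 for Ccno and -0.075 to 0.36 for Trp73 in lung, -0.28 to 0.14 for Rfx3 in liver, and -0.089 to 0.40 for Rfx3 and -0.37 to 0.13 for Plk4 in the tissue difference. Plk4 against the axonemal mean ran from -0.44 to 0.033, the latter without WT lung 1.

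Over all genes, edgeR called 51 in lung, 0 when blocked on replicate number, 9 with the DESeq2 size factors, 210 with at least 10 counts in every library, 0 with at least 1 count, 2284 with all 12 libraries in 1 fit, 5881 without null lung 1 and 0 without any other library, and DESeq2 called 2355. In liver it called 3856, 3304 with the block, 1921 with all 12 libraries in 1 fit and 1641 to 3451 when each library was left out. For the tissue difference it called 60, 0 with the block, 33 with at least 1 count, 92 with at least 10 counts in every library, 0 to 813 when each library was left out, and DESeq2 called 610. The block left the number of regulators called at 0 in lung, 4 in liver, 0 for the tissue difference and 10 between the WT tissues. WT and null pups share only a number, so their block pairs nothing.

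Mcidas and Foxn4 rest on 15 to 54 reads in each lung. The lung comparison rests on a null group in which the alveolar, basal and muscle markers of 1 of 3 libraries go against its tissue label.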
